A study of Mus musculus with 2 samples.

Results

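Chil3-positive neutrophils were 160 of the 12018 cells measured in 4T1 mammary tumours. They were chosen by their own counts. A cell had to have S100a8 at 5% or more and Lgals1 under 1% of its molecules, at most 1 molecule of Cd3d, Cd3e and Cd3g together, and at least 3 molecules of Chil3. The first 3 criteria alone kept 6848 cells, called neutrophils here, and the 6688 of them with fewer than 3 Chil3 molecules are the other neutrophils. The tumours grew in the mammary fat pad of female BALB/c mice that were 8 weeks old when they received 4T1 cells, a mammary carcinoma line of that strain. Antibody treatment began after 7 days, at about 70 mm3, in 4 arms of 6 mice, and 2 tumours of each arm were dissociated. All groups carried the tumour, and all received an antibody, rat IgG2a in the control arm. EPCAM-positive and EPCAM-negative cells were loaded at 1 to 4. The first cartridge of the single-cell instrument, the no-anti-PD-1 pool, held the isotype control and anti-Siglec-E arms under sample tags 1 and 2. The second, the anti-PD-1 pool, held the anti-PD-1 (clone RMP1-14) and combination arms, with tags 3 and 4. Neither the arm behind each tag nor the mouse behind each cell is given in the labels, so values are given by tag and no arm is named. With 1 cartridge per pool there was no replicate and no test, and the cartridge and the treatment cannot be told apart. Tags are not replicates. Intervals are exact 95% intervals that cover counting error only.

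Neutrophils mature in the bone marrow and fill granules in a fixed order. Elane, neutrophil elastase, belongs to the primary granules of promyelocytes, cells that still divide. Chil3 (Ym1), a chitinase-like protein, is known from immature neutrophils of the marrow. Gelatinase (Mmp9) is stored in granules that form late, and the chemokine receptor Cxcr2 marks cells ready to leave. S100a8 is an alarmin subunit abundant in neutrophils of all late stages, and Ube2c is a ubiquitin-conjugating enzyme of mitosis. Tumours such as 4T1 are known to release immature neutrophils into the blood.

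Chil3 lies on chromosome 3 at chr3:106147554-106167564 on the minus strand and Elane on chromosome 10 at chr10:79886247-79888215 on the plus strand (GRCm38, GENCODE M21). The letters before their starts are shown because Chil3 chose the cells and Elane is the granule gene on which the label of these cells rests. They come from RefSeq (GRCm38.p6), stop before both annotated starts, run 5′ to 3′ on the gene's strand, and carry in capitals the letters AGGAAGT on either strand (ACTTCCT on the other), a core read by ETS factors.
Chil3, chr3:106167565-106167814, minus strand: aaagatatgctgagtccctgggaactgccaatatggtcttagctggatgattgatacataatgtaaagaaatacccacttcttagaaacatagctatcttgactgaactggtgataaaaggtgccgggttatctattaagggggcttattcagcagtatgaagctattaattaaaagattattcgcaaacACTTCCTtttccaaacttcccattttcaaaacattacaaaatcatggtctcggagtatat
Elane, chr10:79886062-79886246, plus strand: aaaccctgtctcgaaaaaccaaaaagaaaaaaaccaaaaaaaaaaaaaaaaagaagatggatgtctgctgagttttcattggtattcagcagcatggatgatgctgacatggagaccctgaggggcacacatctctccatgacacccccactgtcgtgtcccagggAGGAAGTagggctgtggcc
Each stretch held the motif at 1 place. Over the 250 bases before the start, the motif was also found for S100a8 and for Lyz2, the lysozyme gene of myeloid cells, and not for Ube2c, Mki67 or Top2a. Of 32851 RefSeq mouse promoters, 7.69% held it in the same window. The motif was picked after these sequences had been seen, and a match is a description, not a binding site. Chil4, a neighbour on chromosome 3 at chr3:106201490-106219507, is not among the counted genes. The panel's Chil3 transcript and a Chil4 transcript were identical at 94.4% of 1538 aligned bases, so Chil3 counts could include Chil4 molecules.

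The Cd3 limit set aside 228 of the 388 cells (58.8%) that met the S100a8 and Lgals1 criteria and had 3 or more Chil3 molecules, against 11.6% of all cells that met those 2 criteria. By tag it set aside 24, 24, 146 and 34 cells in tags 1 to 4 and left 28, 19, 90 and 23. Of the 1386 Cd3 molecules in the cells set aside, 1293 (93.3%) were Cd3d. In the 733 cells with 3 or more Cd3 molecules and S100a8 under 5%, called the T cell gate, Cd3d made up 24.8% of Cd3 molecules. All 3 genes encode chains of the T cell receptor complex, and of the 228 cells set aside, 221 had at most 1 molecule of Cd3e and Cd3g together and 221 had no Trac, the T cell receptor alpha constant gene. The cells set aside were also deeper, with a median of 6153 molecules of the 396 shared genes against 4646. Whether their Cd3d reads came from T cells was not tested. Shares, Elane and Ube2c detection and counts of called genes are given both with Cd3d in the limit and with it left out. Named genes that lost their call without Cd3d in the limit are listed.

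**Figure D1:**
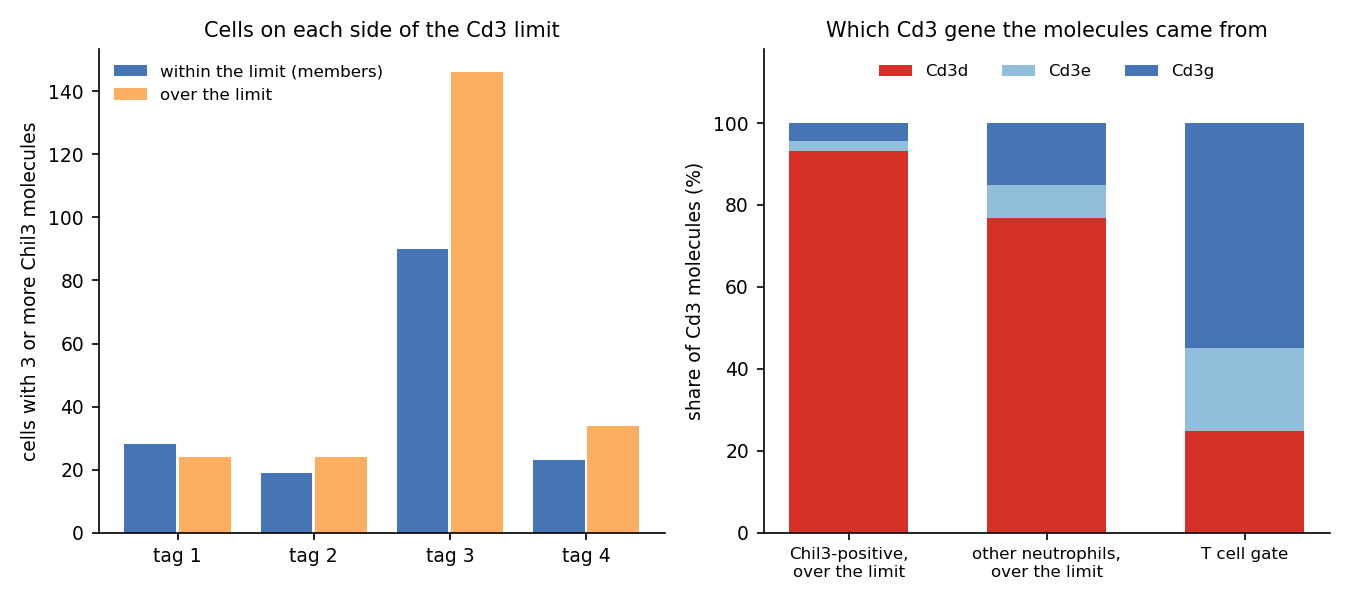
Cells with 3 or more Chil3 molecules on each side of the Cd3 limit by tag (left, bars count cells), and the share of Cd3 molecules from Cd3d, Cd3e and Cd3g (right, stacked bars over all 4 tags). In tags 2, 3 and 4 more cells lay over the limit than within it, and Cd3d was 93.3% of Cd3 molecules in the Chil3-positive cells over the limit and 24.8% in the T cell gate.

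Chil3-positive cells made up 2.03% of neutrophils in tag 1 (28 of 1376 cells, interval 1.36 to 2.93%). In tag 2 they were 2.17% (19 of 875, 1.31 to 3.37%), in tag 3 2.30% (90 of 3907, 1.86 to 2.82%) and in tag 4 3.33% (23 of 690, 2.12 to 4.96%). Tag 4 was highest, and the intervals of all 4 tags overlapped. The mean of the anti-PD-1 pool was 1.34 times that of the other pool. With Cd3d left out of the limit the shares were 3.44 (2.58 to 4.49), 4.42 (3.22 to 5.91), 5.23 (4.59 to 5.93) and 7.20% (5.47 to 9.27) in tags 1 to 4, over 381 cells. In that setting the interval of tag 1 lay below those of tags 3 and 4, and the ratio of the pools' mean tag shares was 1.58. Counted over all cells of a pool instead, which weights tags by their cells, the share was 3.82% (3.11 to 4.66) of neutrophils in the no-anti-PD-1 pool. It was 5.52% (4.92 to 6.18) in the other pool. For comparison, 2.46% of T cell gate cells (18 of 733, 1.46 to 3.85%, median 956 molecules) and 3.27% of Lgals1-rich cells with little S100a8 (62 of 1896, 2.52 to 4.17%, median 2246 molecules) also had 3 or more Chil3 molecules. Neutrophils had 2.34% (1.99 to 2.72%, median 1251 molecules), so with Cd3d in the limit their share was not above that in T cell gate cells, which should lack the gene. With Cd3d left out it was 4.97% (4.50 to 5.48%), an interval above that of T cell gate cells. The share depends on the limit and cannot be read as expression on its own. Both pools' libraries together shared 37 cell index numbers, all between the cartridges, and 2 of them belonged to Chil3-positive cells.

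Chil3 varied widely among the chosen cells. The median was 11 molecules per cell in tag 1 (3 to 146), 6 in tag 2 (3 to 147), 10 in tag 3 (3 to 368) and 14 in tag 4 (3 to 139), and all 4 ranges overlapped. As summed counts per 1000000 molecules of the shared genes (CPM), Chil3 stood at 5059.8, 3462, 6834 and 5743 in tags 1 to 4. The 25 cells with exactly 3 Chil3 molecules and the 74 with 2, just outside the choice, had medians of 4173 and 3613 molecules. Their Lyz2 stood at 12214 and 8684.2 CPM, Il1rn at 4109.5 and 6969 CPM, and Fth1 at 86864 and 102155 CPM. Elane was seen in 1 of the former and 2 of the latter. The chosen cells were far deeper than the rest, with medians of 4331, 4420.0, 4474.5 and 5427 molecules in tags 1 to 4 against 1252, 1184, 1229 and 1209. S100a8, which the rule used, was 57.8 to 61.7% of their molecules at the median by tag and 21.9 to 26.004% in other neutrophils.

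**Figure D2:**
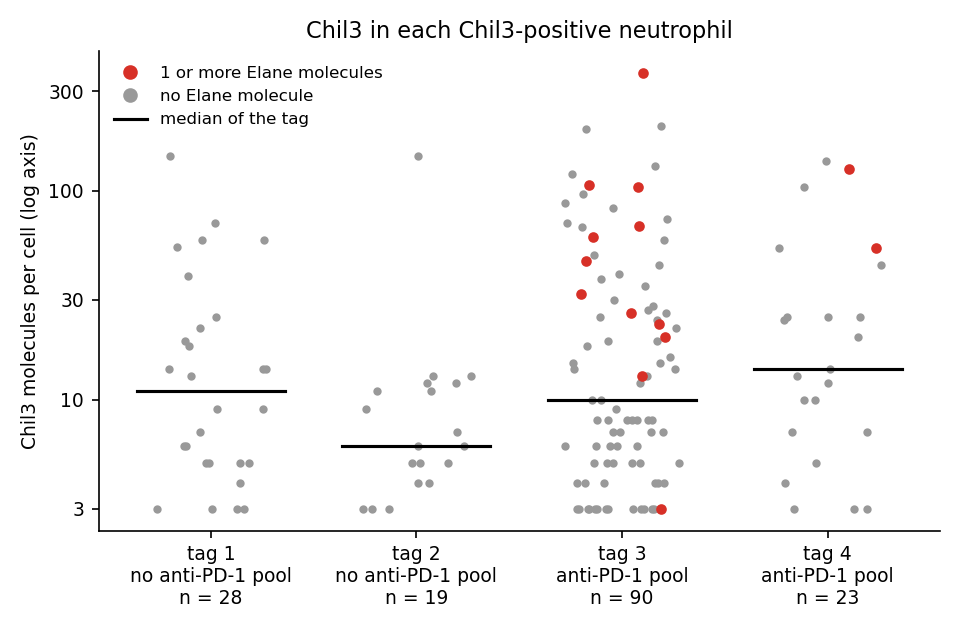
Chil3 molecules of each of the 160 Chil3-positive neutrophils (log axis) by tag, with the median of the tag as a line and cells with Elane in red. Medians were 11, 6, 10 and 14 molecules, and all 14 Elane-positive cells lay in tags 3 and 4.

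Markers of the immature label were found in a minority of the cells. Chil3 and S100a8 had chosen the cells, so only Elane and Ube2c could be read. Elane was detected in 14 of 160 Chil3-positive cells (8.75%, 4.87 to 14.2%) against 19 of 6688 other neutrophils (0.284%). Ube2c was detected in 21 (13.1%, 8.31 to 19.4%) against 62 (0.927%). After each cell had been thinned to 1000 molecules, which left out 5 Chil3-positive and 2545 other cells, Elane was in 6.45 and 0.145% and Ube2c in 7.74 and 0.603%. The remaining 146 cells had no Elane molecule. Elane belongs to an early stage and counts are sparse, so this does not show the cells to be mature, and they are called Chil3-positive below, by the rule. Among T cell gate cells 0.682% had Elane, and among Lgals1-rich cells 1.85%.

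Elane was carried by few cells at high counts. The 14 cells held 2 to 430 Elane molecules, with a median of 9.5, and 1 cell of tag 3 held 44.3% of the total of 970. They had 3 to 368 Chil3 molecules, with a median of 49.5. In 12 of the 14, the 9 measured proliferation genes (Ube2c, Mki67, Top2a, Pcna, Aurkb, Tyms, Mcm2, Mcm4 and Myc) gave 10 or more molecules together, against 7 of the 146 cells without Elane. Outside the Chil3-positive cells, 16 of the 19 Elane-positive neutrophils had a single Elane molecule. Of the other 3, the one with the most, chosen after its values were seen, was a tag 3 cell with 97.5% of the 811 Elane molecules of other neutrophils and 140 proliferation molecules, whose Chil3 count of 2 fell just under the limit.

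Elane detection by pool shifted with the Cd3d part of the limit, and the intervals of the pools overlapped with and without it. Within the limit no Chil3-positive cell of tags 1 and 2 had Elane (0 of 47, exact interval 0 to 7.55%, with a limit of 3 counts at 6.38%), against 12 of 90 cells in tag 3 (13.3%, 7.08 to 22.1%) and 2 of 23 in tag 4 (8.70%, 1.07 to 28.0%). Tags 3 and 4 together had 14 of 113 (12.4%, 6.94 to 19.9%). Over the limit lay 13 further Elane-positive cells, 2 in tag 1, 2 in tag 2, 7 in tag 3 and 2 in tag 4, and 9 of these had 10 or more proliferation molecules. With Cd3d left out of the limit, Elane was in 3.85, 4.65, 7.79 and 5.45% of Chil3-positive cells in tags 1 to 4, with overlapping intervals. Ube2c moved likewise, from 3.57, 0, 16.7 and 21.7% within the limit to 9.62, 11.6, 19.5 and 18.2% without Cd3d in it.

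**Figure D3:**
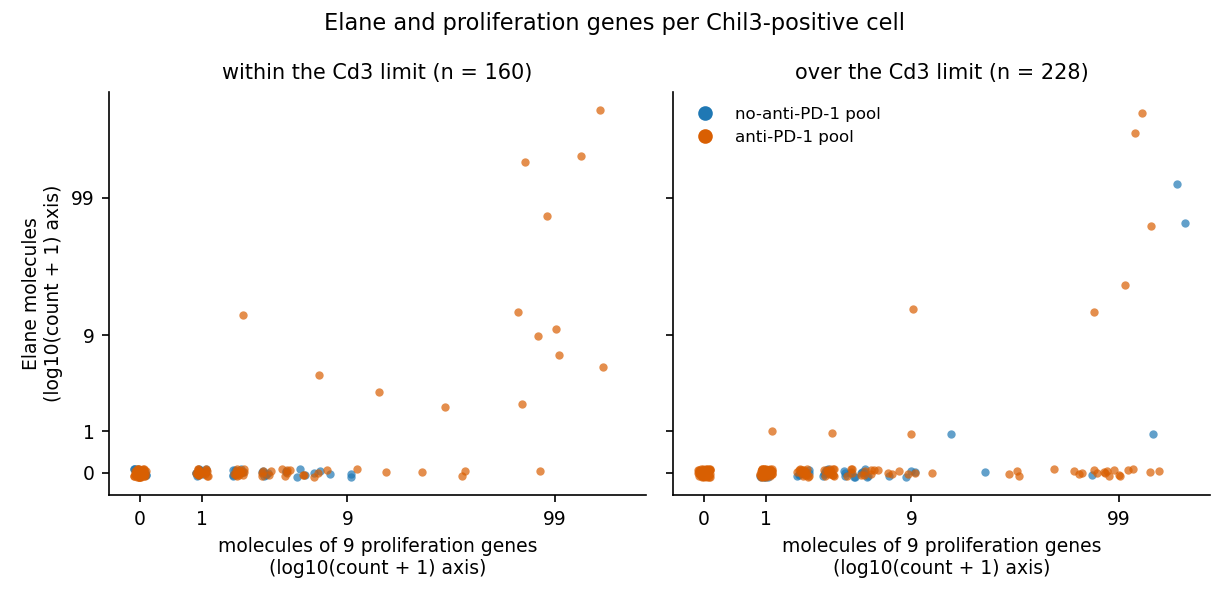
Elane molecules (vertical) against the summed molecules of 9 proliferation genes (horizontal) in each cell with 3 or more Chil3 molecules, on log10(count + 1) axes with slight jitter, for the 160 cells within the Cd3 limit (left) and the 228 over it (right), coloured by pool. The 14 Elane-positive cells on the left are all from the anti-PD-1 pool, and the 13 on the right include 4 from the no-anti-PD-1 pool.

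The 160 cells fell into parts by what else they expressed, split after the values were seen and given with no test. The 14 Elane-positive cells had a median of 6674.5 molecules, and Elane stood there at 10729 CPM (10065 to 11426). Mmp9 stood at 99.5 CPM (45.5 to 189) in them, against 4554 CPM (4384 to 4730) in the 130 cells with neither Elane nor much proliferation or macrophage signal and 2404 CPM in other neutrophils. Mmp9 had no more than 3 molecules in any of these 14 cells. In the 13 Elane-positive cells over the Cd3 limit, its median was 1 molecule and its maximum 29. Cxcr2 was 365 CPM (251 to 513) in the 14 cells, against 700 CPM (635 to 771) in the 130 cells and 767 CPM in other neutrophils. Cd63, a granule membrane protein, showed the opposite order, with 5331, 1227 and 1178 CPM. Between the 130 cells and other neutrophils, Mmp9 was higher with intervals apart, while the intervals of Cxcr2 and Cd63 overlapped.

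Mki67, Top2a and Tyms were highest in 2 small parts. All parts but the Elane-positive one were split by the proliferation count itself, so the values describe the split. The antigen of dividing cells Mki67 stood at 2721 CPM (2392 to 3083) in Elane-positive cells and at 1090 CPM (791.9 to 1463) in 7 cells with 10 or more proliferation molecules but no Elane. It stood at 21.99 CPM (11.7 to 37.6) in the 130 cells, which hold fewer than 10 proliferation molecules each by the split, and at 15.5 CPM (13.2 to 18.1) in other neutrophils, which were not split. In the same groups, topoisomerase Top2a stood at 2478, 916, 8.46 and 17.0 CPM and thymidylate synthase Tyms at 1007, 594, 3.38 and 5.34 CPM. Unlike Mki67, both were lower in the 130 cells than in other neutrophils. For each of these genes the intervals of the 130 cells and other neutrophils overlapped. The replication clamp Pcna was spread more widely, with 2168 and 1238 CPM in these 2 parts, 161 CPM in the 130 cells and 303 CPM in other neutrophils.

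Another part carried macrophage or monocyte messages. It was 9 cells with 10 or more molecules of C1qa, C1qb, Trem2, Apoe, Adgre1, Cd163, Ccr2 and Cx3cr1, no Elane and fewer than 10 proliferation molecules, with 3, 1, 5 and 0 cells in tags 1 to 4. Their S100a8 was 17.8% of molecules when summed (178049 CPM), against 580618 CPM in the 130 cells. The monocyte chemokine receptor Ccr2 stood at 4553 CPM in them and 52.4 CPM in the 130 cells. The arginine-degrading enzyme Arg1 stood at 16694.4 CPM against 607 CPM, and the chemokine Cxcl1 at 13955 against 790.1 CPM. In other neutrophils Arg1 was 138 and Cxcl1 381 CPM.

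Markers of other cell types were summed by list. The whole monocyte list, 4 genes with Lyz2 and Fn1 among them, summed to 10809 to 39374 CPM by tag in Chil3-positive cells against 2512 to 3619 CPM in other neutrophils, and 84.4% of Chil3-positive cells had 10 or more of its molecules against 10.5% of others. Of 3 monocyte genes measured, Lyz2 and Fn1 passed the rule for higher genes given below, and none of 4 macrophage genes did. Without Lyz2 and Fn1, the 8 macrophage and monocyte markers named above summed to 86.5 to 699 CPM by tag in Chil3-positive cells and 72.5 to 135 CPM in other neutrophils, with Cd163 and Cx3cr1 at 0 molecules in the former. 10 or more of these molecules were in 12 of 160 Chil3-positive cells (7.50%) and 17 of 6688 others (0.254%). T cell markers, 11 genes, summed to 23.6 to 79.4 CPM against 83.7 to 146 CPM, with Trac, Trdc and Foxp3 at 0 molecules in Chil3-positive cells. B cell markers, 11 genes, summed to 7.87 to 37.2 CPM against 15.4 to 105 CPM, with Ms4a1, Pax5 and Ighd among those at 0. Dendritic cell markers, 8 genes that include class II genes, summed to 212 to 3735 CPM against 1366 to 2308 CPM, with Flt3 and Il12b at 0. NK cell markers, 8 genes, summed to 37.2 to 272 CPM against 50.5 to 192.9 CPM, mast cell or basophil markers, 6 genes, to 31.3 to 86.9 against 65.4 to 103 CPM, and stromal markers, 4 genes, to 14.4 to 102 against 22.8 to 59.2 CPM. The 2 epithelial or 4T1 markers counted in all tags, Lmna and Spp1, summed to 472 to 2081 against 732 to 2689 CPM, and the eosinophil marker Ccr3 was at 0 in Chil3-positive cells. The part of these cells in the gene differences below was not tested. Without neutrophils holding 10 or more macrophage and monocyte molecules, 8 genes were higher and 26 lower. Of the higher genes given below, Cxcl1, Dock8, Fn1 and Igbp1 lost their call there, and of the lower genes Tlr1 did.

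As CPM, Chil3-positive cells stood higher in lysozyme and lower in several inflammatory messages than other neutrophils. CPM is a share of a cell class's molecules, and molecules per cell were not compared. A gene was called where the CPM differed at least 2-fold in the same direction in all 4 tags, over at least 30 molecules and with no single cell holding over 20% of the higher side. Of 305 genes measured, 12 (3.93%) were higher and 24 (7.87%) lower, and the median log2 ratio over all of them was 0.00. Because S100a8 took a median of 57.8 to 61.7% of the molecules of the chosen cells, the scale matters. With S100a8 left out of the total the median log2 ratio rose to 0.67, and 28 genes were higher and 3 lower. Depth moved with the choice too, and against other neutrophils of at least 3000 molecules 3 genes were higher and 4 lower. The rule chose the cells, so these are descriptions of them.

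Lyz2, lysozyme of myeloid cells, was the most abundant of the higher genes (chr10:117277331-117282321, minus strand). It stood at 21446, 9989.7, 38243 and 33072 CPM in tags 1 to 4, against 2580.4, 2218, 2593 and 3244 CPM in other neutrophils, a mean log2 ratio of 3.11. Tag 2 was lowest and still above every tag of the other neutrophils, and the gene kept its call under all 25 alternatives tried. Tnfsf13 (APRIL), a B cell survival ligand, had the largest mean log2 ratio, 3.69, at 95.3 (49.3 to 167), 112 (51.1 to 212), 185 (146 to 232) and 94.4 (48.8 to 165) CPM against 7.69 to 13.2 CPM. It was a rare message, with 12, 9, 77 and 12 molecules in the 4 tags, and it kept its call in 23 of 25 alternatives, losing it at Chil3 minimums of 5 and 10.

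**Figure D4:**
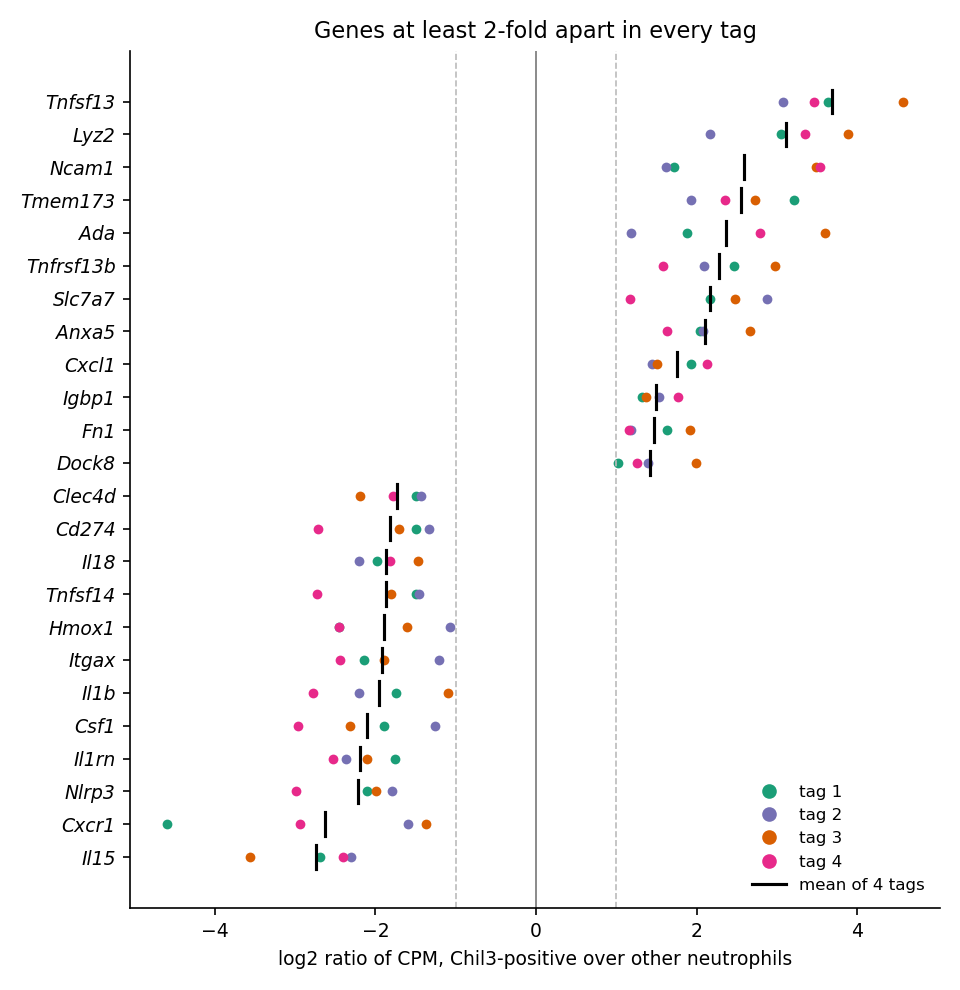
Log2 ratio of CPM in Chil3-positive over other neutrophils for the 12 called genes with the highest and the 12 with the lowest mean, 1 point per tag and a bar at the mean of the 4 tags. Dashed lines mark 2-fold, and every point lies beyond them, from Tnfsf13 (mean 3.69) to Il15 (mean -2.74).

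The other 10 higher genes were Ncam1, Tmem173, Ada, Tnfrsf13b, Slc7a7, Anxa5, Cxcl1, Igbp1, Fn1 and Dock8, with mean log2 ratios from 1.42 to 2.59. Tmem173, the innate DNA-sensing adaptor STING, stood at 254, 137, 231 and 189 CPM against 27.4 to 37.0 CPM. Anxa5, a phospholipid-binding protein, stood at 810.2, 658, 859.6 and 511 CPM against 135 to 197 CPM. Ada, adenosine deaminase, was lowest of them at 15.9, 24.8, 72.2 and 39.3 CPM against 4.33 to 10.9 CPM. For Tmem173 and Anxa5 the tags of the 2 classes did not overlap. The values of Ada rest on 2, 2, 30 and 5 molecules, its intervals overlapped those of other neutrophils in tags 1 and 2, and it lost its call without Elane-positive cells and with tag 3 left out. Cxcl1, a neutrophil-attracting chemokine, stood at 2582, 1353, 783 and 1125 CPM against 257 to 675 CPM. The matrix gene Fn1 stood at 1144, 596, 824 and 708 CPM against 217 to 370.2 CPM. The 1 cell with most of each held 18.9% of Cxcl1 and 17.8% of Fn1 molecules of the chosen cells. The mean log2 ratio of Fn1 was -0.17 with S100a8 at 10% or more and -0.28 with Lgals1 under 0.5%, and Cxcl1 stood at 13955 CPM in the 9 cells with macrophage markers. Cxcl1 kept its call under 10 of 25 alternatives and lost it with any 1 of the 4 tags left out and without cells holding macrophage markers. Fn1 kept its call under 12 of 25. Cxcl1, Fn1 and Igbp1 were not called with Cd3d left out of the limit. Against other neutrophils of at least 3000 molecules, the 3 higher genes left were Lyz2, Tnfsf13 and Cxcl1.

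Of the 24 lower genes, 8 belonged to the list of tumour neutrophil and inflammatory genes. Il1rn, the interleukin 1 receptor antagonist, stood at 5449, 3599, 2853 and 2014 CPM against 18465, 18568, 12247 and 11649 CPM, a mean log2 ratio of -2.19. Il15, a cytokine for lymphocytes, reached 119 (66.7 to 197), 174 (94.98 to 291), 48.2 (29.4 to 74.4) and 94.4 (48.8 to 165) CPM against 501 to 859 CPM, the lowest mean ratio at -2.74. Both kept their call under all 25 alternatives. Nlrp3, an inflammasome sensor, stood at 254, 335, 272 and 142 CPM against 1081 to 1158 CPM and kept its call in 23 of 25. Cd274, which encodes PD-L1, stood at 2264, 2457, 1709.6 and 842 CPM against 5535 to 6396 CPM and kept its call in 22 of 25. Every tag of the chosen cells lay below every tag of the others for these 4 genes. They were also the 4 lower genes left against neutrophils of at least 3000 molecules, and Il15, Il1rn and Nlrp3 the 3 left with S100a8 out of the total.

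The remaining lower genes lost their call under at least 4 of 25 alternatives each. Among them, ferritin heavy chain Fth1 stood at 63513, 69866, 75592 and 62391 CPM against 157815 to 190569 CPM. The receptor Cxcr1 stood at 15.9, 137, 130.03 and 47.2 CPM against 337 to 412 CPM, the haem oxygenase Hmox1 at 1557, 4058, 2025 and 1172 CPM against 6164 to 8551 CPM, and Il1b at 191, 136.5, 142 and 47.2 CPM against 305 to 641 CPM. Clec4d, Il18, Tnfsf14, Itgax and Csf1 had mean log2 ratios from -1.73 to -2.11.

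Few granule and maturation genes of the panel differed at least 2-fold in all 4 tags. Of 18 granule and progenitor genes listed, 6 were counted in all tags (Elane, Mmp9, Cd63, Cd34, Kit and Cxcr4), and none passed in all 4 tags. Mmp9 was higher in each tag, at 5457, 3028, 3092 and 4335 CPM against 2309 to 2576 CPM, below 2-fold in 3 of them. Elane stood at 0, 0, 1873 and 1510.4 CPM against 2.40, 0, 136 and 2.85 CPM, and 97.5% of the 811 Elane molecules of other neutrophils lay in 1 cell. Cxcr4, the receptor that holds neutrophils in the marrow, was lower in each tag, at 1195.8 to 1489 CPM against 2591 to 2621.5 CPM. The stem cell factor receptor Kit stood at 7.94 to 49.6 CPM against 54.3 to 78.1 CPM, and Cd34 at 0 to 23.8 against 3.40 to 9.13 CPM. With tag 2 left out, Cxcr4 and Kit were called lower. The list's median log2 ratio was 0.54, against 0.00 over all 305 genes.

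Of 12 maturation genes measured, none was higher and 2 were lower, against 3.93% higher and 7.87% lower of all 305 genes. The 2 were Cxcr1 and the C-type lectin Clec4e, which stood at 3304, 3574, 2707 and 1683 CPM against 5458 to 7229 CPM. Cxcr1 kept its call under 19 of 25 alternatives and Clec4e under 14. The list's median log2 ratio was -0.54. Both integrin chains Itgam and Itgb2 were higher in every tag without reaching 2-fold, with means of 0.56 and 0.73. S100a9, the partner of S100a8, differed by a mean of -0.02. The chemoattractant receptor Cxcr2 had a mean of -0.27, and it was detected in 41.3% of Chil3-positive cells and 42.3% of others at 1000 molecules per cell. Selplg, the selectin ligand, had a mean of 0.05, Fcgr3 -0.30, Il1r2 -0.78, Cd14 -0.79 and Tlr2 -0.85.

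The 9 proliferation genes had a median log2 ratio of 2.35, and none was called. A tag with 0 molecules in Chil3-positive cells gave no ratio where the 3 counts put in its place lay above other neutrophils. Such a tag was left out of the gene's mean, which raises the median, and the gene could not be called. Mki67 had no molecule in tag 1 and was called higher with that tag left out. Mki67 stood at 0, 62.0, 636 and 307 CPM against 5.70 to 19.7 CPM. Tyms stood at 15.9, 0, 202 and 244 CPM, Mcm2 at 7.94, 0, 169 and 102 CPM, Aurkb at 0, 0, 93.9 and 47.2 CPM, and Mcm4 at 71.5, 161, 289 and 220.3 CPM. Myc stood at 23.8, 49.6, 33.7 and 110.1 CPM. With Cd3d left out of the limit, which gave 381 Chil3-positive cells, Mki67, Top2a, Tyms, Mcm2, Aurkb and Ube2c were all called higher. In that setting 21 genes were higher and 31 lower.

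The inflammatory and stress lists had more lower than higher calls. Of 19 tumour neutrophil and inflammatory genes, Cxcl1 was higher and 8 were lower (Il1b, Il1rn, Il18, Nlrp3, Ccl3, Cxcl2, Il15 and Csf1), with a median of -0.94. Of the chemokines among those, Cxcl2 and Ccl3 stood at 14388 to 28070 against 38995 to 56618 CPM and at 3742 to 7346 against 10486 to 15134 CPM. Of 11 iron, stress and hypoxia genes, 5 were lower (Fth1, Hmox1, Dusp1, Dusp2 and Btg1) and none higher, with a median of -1.40, against 7.87% of all genes lower. None of these 5 was called with S100a8 out of the total or against neutrophils of at least 3000 molecules. Of 8 interferon response genes, Cd274 and Il15 were lower, with a median of -0.44. None of 5 class II genes was called. Among 60 genes counted in tags 2 to 4 alone, 3 (5.00%) were higher and 5 (8.33%) lower in those 3 tags. Ptgs1 (cyclooxygenase 1) was higher at 149, 253 and 189 CPM in tags 2 to 4 against 18.1 to 36.8 CPM, as was complement factor B, Cfb, at 124, 142 and 134 against 14.8 to 30.9 CPM. Ccrl2, Rsad2, Nfkbiz, Slc7a11 and H2-Q10 were lower, Ccrl2 with 4356, 2092 and 1628 against 10479 to 16844 CPM. The other higher gene was Msr1.

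Siglece, the target of the anti-Siglec-E antibody, was counted in tags 2 to 4 alone and stood at 683, 653 and 590.0 CPM against 416, 589 and 605 CPM, a mean log2 ratio of 0.28. Pdcd1, which encodes PD-1, had no molecule in the Chil3-positive cells, which allows up to 23.8, 37.2, 7.22 and 23.6 CPM in tags 1 to 4, and stood at 0.779 to 3.80 CPM in others. Cd33, another Siglec, differed by a mean of 0.12.

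Across neutrophils, Lyz2, Il1rn, Fth1, Elane and Ube2c moved with the Chil3 count. Lyz2 stood at 2278 CPM in the 6407 cells with no Chil3 molecule, 5618 in the 207 with 1, 8684.2 in the 74 with 2, 11020 in the 35 with 3 or 4, 14474 in the 42 with 5 to 9, 26591 in the 46 with 10 to 29 and 62801 in the 37 with 30 or more. Il1rn went from 14724 CPM to 1885 CPM and Fth1 from 185160 to 44584 CPM between the first and last of these bands. Cxcr2 was 757 CPM in the first band, 1008.6 CPM at 2 molecules and 361 CPM in the last. Elane was detected in 0.2497, 0.483, 2.70, 2.86, 0, 8.70 and 24.3% of cells over the 7 bands, and Ube2c in 0.858% of the first and 32.4% of the last. Without the Cd3 limit, Elane was in 12.2% (16 of 131) and Ube2c in 32.8% of the last band. Depth moved with the bands, from a median of 1201 to 5845 molecules, and so did S100a8, from 24.1 to 66.6% of molecules.

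**Figure D5:**
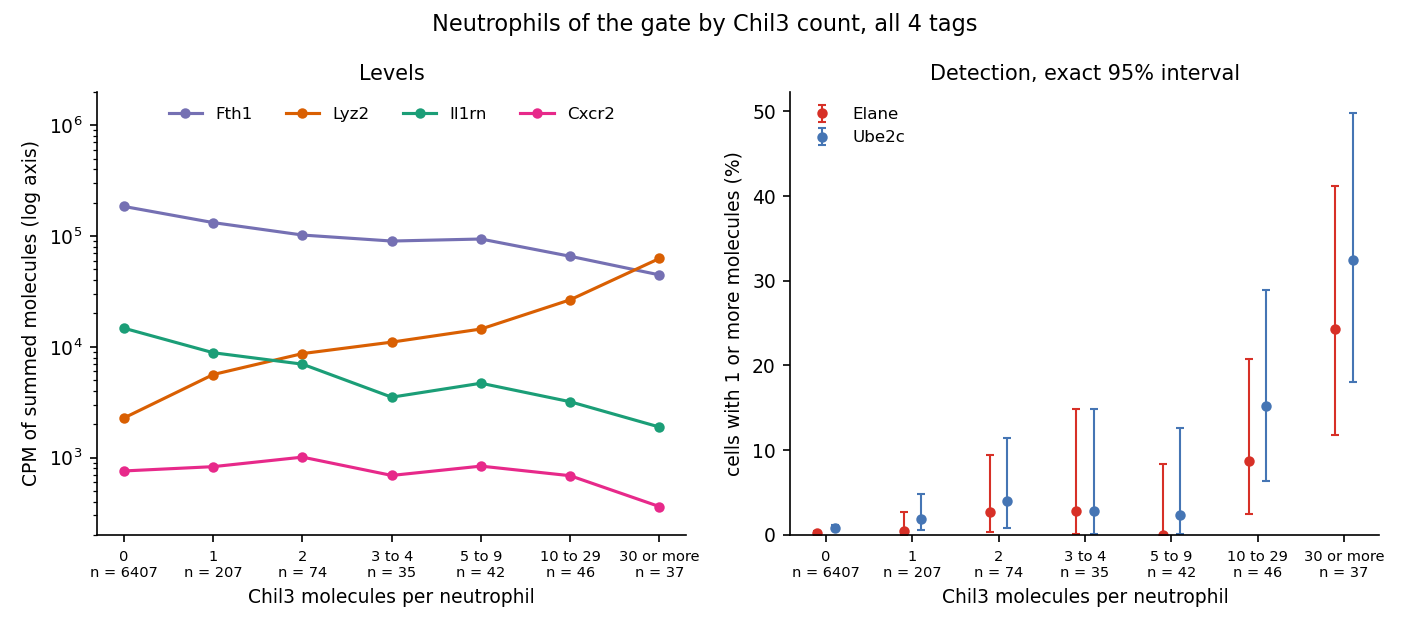
Neutrophils grouped by their Chil3 count over all 4 tags. Left, summed CPM (log axis) of Fth1, Lyz2, Il1rn and Cxcr2. Right, the share of cells with 1 or more Elane or Ube2c molecules with exact 95% intervals. Lyz2 climbs from 2278 to 62801 CPM, Il1rn drops from 14724 to 1885 CPM, and Elane is detected in 24.3% of cells in the last band.

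Over 4298 neutrophils thinned to 1000 molecules each, the genes whose counts followed Chil3 most closely were Lyz2 (Spearman rho 0.23), Mgst1 (0.19), Anxa5 (0.19), Cd52 (0.18), Tnfsf13 (0.18), Elane (0.16), Mki67 (0.15) and Tmem173 (0.14), of 255 genes. The lowest were Fth1 (-0.22), Clec4d (-0.21) and Btg1 (-0.18). These values are weak, the counts are sparse, the cells share 2 libraries, and no p-value is given. The cells include Chil3-positive ones, so the values are not separate from the contrast above. S100a8, which rose with Chil3, is part of the 1000 molecules, so the scale bears on these values too.

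Within Chil3-positive cells some cell cycle messages were more abundant in the anti-PD-1 pool, while lower genes were about as frequent as in other neutrophils. A gene was called where the tags of the pools did not overlap and the closest pair of tags from different pools differed at least 1.5-fold. Of 198 genes measured, 10 (5.05%) were higher in the pool with anti-PD-1 and 12 (6.06%) lower, against 7 (2.32%) and 19 (6.29%) of 302 in other neutrophils. The median log2 ratio over all 198 was -0.23. With TMM scaling it was 0.17, and 16 genes were higher and 2 lower. The 2 were Nt5e and Arl4c, and the other 10 lower genes, Trem1 and Tnf among them, lost their call. Tag 3 held 90 of the 160 cells, and without it 1 gene was higher and 39 lower.

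The higher genes with the largest ratios were those of dividing cells. Top2a had 1, 2, 242 and 22 molecules in tags 1 to 4, or 7.94, 24.8, 583 and 173 CPM, against 13.3 to 19.5 CPM in other neutrophils. The PCNA-associated factor 2810417H13Rik stood at 31.8, 74.5, 879 and 700.1 CPM against 14.3 to 37.5 CPM. Mki67 had 0, 5, 264 and 39 molecules, Tyms 2, 0, 84 and 31, and Mcm2 1, 0, 70 and 13. Of 9 proliferation genes, Top2a, Mki67, Tyms and Mcm2 were higher and none lower, against 5.05% of all genes measured. Among all 198 genes, 104 (52.5%) had no overlap between the tags of the pools. The 10 higher genes kept their call under 11 to 17 of 22 alternatives. With Cd3d left out of the limit, Top2a stood at 274, 235, 553 and 98.6 CPM and Mki67 at 348, 243, 631 and 183 CPM in tags 1 to 4, tag 4 was lowest, and neither was called. In that setting 2 genes were higher and 28 lower. Without the 14 Elane-positive cells, 0 genes were higher and 9 lower.

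Lyz2 was also higher in the anti-PD-1 pool, with a log2 ratio of 1.28 and the nearest tags 1.54-fold apart. So were Tnfsf13b (BAFF), at 23.8, 12.4, 77.0 and 39.3 CPM, Ada, Ncam1 and Rpn2. All of these lost their call without the Elane-positive cells, and in other neutrophils none of the named higher genes was called. Of the 10 higher genes, only Tnfsf13b kept its call with Cd3d left out of the limit.

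The lower genes included a receptor, ectoenzymes and a cytokine. Trem1, an amplifying receptor of myeloid inflammation, stood at 9834 and 9742 CPM in tags 1 and 2 and at 4746 and 4759 CPM in tags 3 and 4, a log2 ratio of -1.04, and kept its call under 20 of 22 alternatives. In other neutrophils it stood at 7360 and 7009 against 6041 and 5820 CPM and was not called. Both ectoenzymes that turn extracellular ATP into adenosine were lower. Nt5e (CD73) stood at 691, 1042 and then 260.1 and 283 CPM, and Entpd1 (CD39) at 1589, 2259 and then 999 and 802 CPM. Arl4c, a small GTPase, stood at 842, 993, 352 and 181 CPM and kept its call under 19 of 22. Tnf, the inflammatory cytokine, stood at 3185, 3264, 1897 and 1644 CPM. Fas, Il15ra, Prdm1, the costimulatory gene Cd86, Clec4d, Bcl2a1a and Tnfrsf1b completed the 12. The death receptor Fas stood at 429, 360 and then 178 and 189 CPM. Il15ra had 63 molecules in all, Prdm1 58 and Cd86 124. The 10 lower genes other than Trem1 and Arl4c kept their call under 7 (Il15ra) to 18 (Nt5e and Tnfrsf1b) of 22, with Prdm1 at 10, Clec4d and Bcl2a1a at 11, Cd86 at 12, Entpd1 and Fas at 15 and Tnf at 16. Fas, Il15ra, Clec4d and Bcl2a1a were not called with Cd3d left out of the limit. Of 18 tumour neutrophil and inflammatory genes, Tnf and Cd86 were lower and none higher, against 6.06% of all 198 genes lower. No gene of the granule, maturation, interferon or stress lists was called.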

How the data were processed

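Single cells of 2 cartridges were measured with the BD Rhapsody Mouse Immune Response targeted panel. The deposited tables, 1 per sample tag, hold counts of molecules per cell and gene, which the authors made with version 1.12.1 of the BD Rhapsody Targeted Analysis Pipeline and corrected by distribution-based error correction, per the file headers. The submitters' processing notes list Seurat 3.2.0. Which aligner and build lie behind the counts is not given in the sources used here. The tag 1 table has 396 genes after 2 targets for Tigit were summed, and the others 468, so the 396 shared genes made up each cell's total and tags 2 to 4 alone gave values for 72 more. Tags 1 to 4 held 2430, 1515, 6620 and 1453 cells with medians of 1463, 1325, 1262 and 1419 molecules. No cells were removed and no doublet caller was run. Instead, the deepest 5% of neutrophils were left out as an alternative.

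Counts were summed per tag and class and scaled to 1000000 shared-gene molecules. For ratios, 0 molecules were replaced by 3, and a side at 0 could not be the higher one. Against other neutrophils, a tag where it would have been gave no ratio and was left out of the mean. With 1 cartridge per pool no test was run. Shares have exact Clopper-Pearson and sums exact Poisson intervals (scipy 1.17.1, numpy 2.4.6, pandas 2.3.3, Python 3.11.15), and TMM factors came from edgeR 4.0.16. The code for calls against other neutrophils was also run on simulated counts. There, well-counted genes picked at random carried known folds larger than the threshold, and cells varied by sampling alone. That run does not bear on sparse genes or on variation between cells, and calls between pools were not simulated. Named genes are the 12 called genes with the highest and the lowest mean log2 ratio, the 8 with the largest ratio each way between pools, and all measured granule, maturation and proliferation genes. Some genes of these lists are not reported here. The 6 genes of the choice (Chil3, S100a8, Lgals1, Cd3d, Cd3e and Cd3g) were left out of counts of called genes. The cells, the gene lists and the call rules were chosen with earlier results of these data known. The alternatives varied the Chil3, S100a8, Lgals1 and Cd3 limits, depth, scaling, tags and call thresholds. Those on Cd3, macrophage markers, Elane and depth of at least 3000 molecules were added after the data had been seen.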

Additional observations from a re-analysis of the deposited data

Results flagged for a closer look

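Against other neutrophils, 3 genes stood higher in both tags of one pool and lower in both of the other, of 43 named genes with a ratio in each tag (6.98%), against 11 of all 201 such genes (5.47%). The difference between the pools was not tested. For Pcna, the replication clamp, the mean log2 ratio of the anti-PD-1 pool minus that of the other pool was 1.95, with ratios of -0.77 and -0.45 in tags 1 and 2 and 1.35 and 1.35 in tags 3 and 4. For S100a9 the difference was 0.10, with ratios of -0.13, -0.01, 0.00 and 0.06. For Selplg it was -0.65, with ratios of 0.29, 0.46, -0.32 and -0.22.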

How the results depend on the processing

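The share of Chil3-positive neutrophils, 2.34% in all tags, was 3.42, 1.83 and 1.21% at Chil3 minimums of 2, 5 and 10, 0.938% without the deepest 5% of neutrophils, 3.61% among cells of at least 1000 molecules and 1.84% when the choice was made after thinning to 1000. It was 4.97% with the Cd3 limit on Cd3e and Cd3g alone and 5.01% with no Cd3 limit. The ratio of the pools' mean tag shares ran from 1.05 to 1.962 over all alternatives. Elane was in 15.7% and Ube2c in 22.9% of cells at a Chil3 minimum of 10. Elane was in 3.28% without the deepest 5% and 2.86% with tag 3 left out, and Ube2c in 7.74% after thinning.

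Counts of genes against other neutrophils, 12 higher and 24 lower, moved with many choices. Lower genes numbered 8 at a Chil3 minimum of 2, and higher genes 5 at a minimum of 10 and 7 with tag 3 left out. Higher and lower genes numbered 7 and 4 without the deepest 5%, 7 and 13 after thinning, 28 and 3 with S100a8 left out of the total, 23 and 45 at 1.5-fold, 5 and 3 at 3-fold, and 3 and 4 against other neutrophils of at least 3000 molecules. Higher genes numbered 21 with the limit on Cd3e and Cd3g and 19 with no Cd3 limit. Fn1 reversed to -0.17 at S100a8 of 10% or more and -0.28 at Lgals1 under 0.5%.

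Between pools, 10 genes were higher and 12 lower. Lower genes numbered 24 at a Chil3 minimum of 2 and 20 with no limit on a single cell. Higher genes numbered 4 after thinning, 20 with tag 2 left out, 6 at a minimum of 100 molecules and 0 without Elane-positive cells. Higher and lower genes numbered 0 and 5 without the deepest 5%, 1 and 39 with tag 3 left out, 16 and 2 with TMM scaling, 5 and 3 with the nearest tags 2-fold apart, 2 and 28 with the limit on Cd3e and Cd3g, and 2 and 26 with no Cd3 limit. Without the deepest 5%, the log2 ratios of Tyms (-1.08), Mcm2 (-1.38), Tnfsf13b (-2.17), Ada (-1.88), Lyz2 (-0.28) and Il15ra (0.46) reversed. Ada also reversed after thinning (-0.021) and without Elane-positive cells (-0.16). Top2a and Tyms reversed to -0.12 and -0.38 with the limit on Cd3e and Cd3g, and to -0.032 and -0.34 with no Cd3 limit. The cause of these changes was not tested. No paired analysis was possible because each pool is 1 cartridge and its tags carry no shared numbers. The 160 cells hold few molecules of rare genes, and 198 genes reached 30 of them, the minimum for a comparison between pools.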

Other observations

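Cd3d climbed in steps with the Chil3 count before the Cd3 limit was applied. It stood at 213 CPM in neutrophils with no Chil3 molecule, then at 341, 402, 454, 548, 569 and 723 CPM at 1, 2, 3 to 4, 5 to 9, 10 to 29 and 30 or more molecules. Over the same bands Cd3e stood at 22.9, 18.5, 8.78, 48.0, 6.63, 3.44 and 18.3 CPM and Cd3g at 39.8, 22.5, 8.78, 29.6, 11.1, 3.44 and 53.8 CPM, without such steps. Cd3d made up 76.7% of Cd3 molecules in the 671 other neutrophils over the limit. In the 228 Chil3-positive cells over the limit it stood at 808, 930.1, 948 and 786 CPM in tags 1 to 4. Those cells had a median of 19 Chil3 molecules against 10 in the cells within the limit.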
